A study of Mus musculus with 47 samples.

Results

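The last 3 of 10 equal parts of a list of CLK:BMAL1 binding sites in mouse liver were examined for their nucleosome signal, and they are called deciles 8, 9 and 10. They are the sites in rows 2255 to 3217 of the deposited list of 3217 ChIP-seq peaks, in file order, which makes 963 sites. The deposited signal table holds 1 averaged profile per library for each decile. Each of these sets has 322 in its name, but the steps of the signal gave 322, 321 and 322 sites, 965 in all of 3216. Rows and sets thus differ by at least 2 sites, and single sites carry no signal value of their own. No source used here states what quantity orders the list.

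CLK (CLOCK) and BMAL1 pair to form the transcription factor at the head of the circadian clock, which binds E-box motifs and drives the clock's own repressors and many liver genes. Binding in mouse liver is strongest in the daytime. Nucleosomes compete with transcription factors for DNA, and a site bound by a factor often shows a trough in nucleosome signal. Micrococcal nuclease (MNase) digests the DNA between nucleosomes, so that the protected fragments that are sequenced report where nucleosomes lie.

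The mice were adult C57BL/6 animals, 3 to 6 months old, under a cycle of 12 h light and 12 h dark. Liver tissue came from wild-type mice and from Bmal1-/- mice, which lack the BMAL1 subunit, and the labels name no promoter or Cre that limits the loss to a tissue. They were collected at 6 times, given as zeitgeber time (ZT, in hours from lights on): ZT02, ZT06 and ZT10 in the light, ZT14, ZT18 and ZT22 in the dark. Tissue was fixed with 1% formaldehyde and nuclei were digested for 15 min. Of 47 libraries, 24 were wild type with 4 mice at each time, and 23 were Bmal1-/- with 4 mice at each time except ZT22 with 3. Mice of 1 genotype that share a replicate number are called a series, of which each genotype had 4. Between 2174 and 5049 fragments (median 3472) lay over a central position of a decile, as the average over its central positions. This is a counting error of 1.41% to 2.14%, which covers counting alone. Relative depth, with the shallowest library at 1, had a median of 1.497 in wild type and 1.348 in Bmal1-/-; its part in the genotype differences was not tested. The targeted gene and cell type markers cannot be read from profiles averaged over sites.

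The sites of deciles 8 to 10 were narrow. Their ChIP-seq width had a median of 250 bp (range 41 to 520 bp), against 330 bp in the 2254 rows before them and 310 bp in the whole list. By row, the median was 270.5 bp in decile 8, 260 bp in decile 9 and 230 bp in decile 10, so width fell along the list within these deciles too. Across the edge of the set, decile 7 had a median of 300 bp, and the rows on either side of the edge, 2254 and 2255, held sites of 280 and 250 bp. No test was made of these widths, since the list may be ordered by a quantity that goes with width.

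By the classes in the peak list, 432 of the 963 sites (44.9%) lay in introns and 55 (5.71%) elsewhere in gene bodies. A further 15.5% lay at transcription start sites, 94 (9.76%) were intergenic within 10 kb of a gene, and 24.2% were intergenic beyond 10 kb. In the 2254 rows before them, 43.5% were intronic, 19.3% at transcription start sites and 21.5% intergenic beyond 10 kb. Against these earlier rows, deciles 8 to 10 thus had a smaller share at transcription start sites and a larger share of distant intergenic sites. Within the set, the share at transcription start sites was 16.1%, 14.9% and 15.3% in deciles 8, 9 and 10. It was 23.3% in the first decile, but 16.8% in decile 4 and 17.4% in decile 6, close to decile 8. The distant intergenic share was 22.4%, 25.5% and 24.9% in deciles 8, 9 and 10. It was 24.3%, 22.7% and 23.3% in deciles 4, 5 and 6, each above decile 8, and below decile 8 in deciles 1, 2, 3 and 7. The distant intergenic share thus did not set decile 8 apart. The sites lay on 20 chromosomes, with the most, 71, on chromosome 5. The 3 kb windows of 17.96% of the sites overlapped the window of another site in the list, against 19.6% of all sites, so that neighbouring sites share fragments.

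A few sites give the span of the set, with positions in mm9. The first row, an intergenic site within 10 kb of a gene, lay on chromosome 9 from 45770061 to 45770310. The last row, of the same class, lay on chromosome 1 from 174240141 to 174240181 and was 41 bp wide. The widest intronic site (500 bp) lay on chromosome 6 from 125313811 to 125314310, and the widest at a transcription start site (430 bp) on chromosome 13 from 62989301 to 62989730. The widest of all (520 bp) was intergenic beyond 10 kb, on chromosome 7 from 151194901 to 151195420. The widest gene body site outside introns was 440 bp, on chromosome 12 from 8570031 to 8570470, and the widest intergenic within 10 kb was 420 bp, on chromosome 10 from 61109331 to 61109750. Gene names for these sites were not used here.

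Each decile had 1 trough of MNase signal at the middle of the site, in both genotypes. The signal is a scaled coverage as the authors deposited it, at 300 positions 10 bp apart. In decile 8, the wild-type mean profile was lowest 5 bp left of the middle, at 4.27 ± 0.424 signal units (SD, n = 24 mice), and the Bmal1-/- profile 5 bp right of it, at 5.01 ± 0.544 (SD, n = 23 mice). In decile 9 wild type reached 4.21 ± 0.400 at 15 bp left and Bmal1-/- 4.72 ± 0.464 at 15 bp right. Decile 10 had 4.09 ± 0.323 at 25 bp left and 4.53 ± 0.433 at 35 bp left. The troughs of the genotypes were thus within 30 bp of each other in each decile, and the Bmal1-/- floor was higher in all 3.

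**Figure D1:**
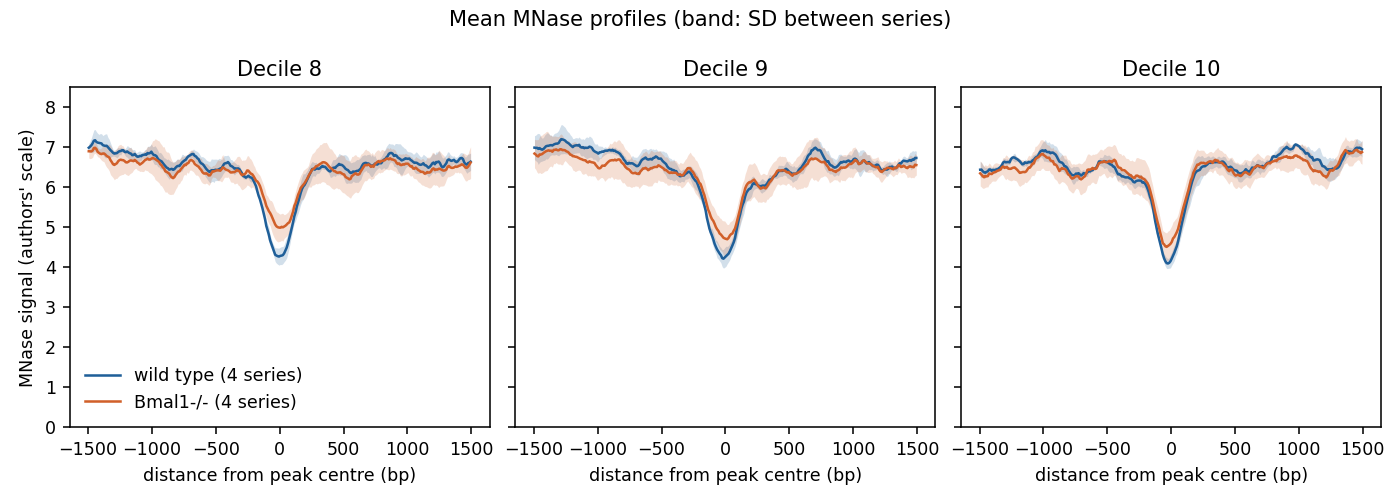
Mean MNase signal (vertical axis, authors' scale) against distance from the peak centre (horizontal axis, bp) in deciles 8, 9 and 10; lines are means of 4 series per genotype and bands the SD between series. Each profile has 1 central trough, with the wild-type line (blue) below the Bmal1-/- line (orange) at the middle and the bands overlapping over most of the rest of the window.

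Away from the middle the profiles were not level. In wild type the highest value left of the middle was 7.17 at -1445 bp in decile 8, 7.20 at -1285 bp in decile 9 and 6.93 at -985 bp in decile 10. On the right it was 6.86 at 875 bp, 6.99 at 705 bp and 7.07 at 975 bp. Bmal1-/- livers had their highest left values at -1445, -1295 and -1005 bp, within 20 bp of the wild-type positions, while on the right of decile 10 the position was 1365 bp. No source used here states whether windows were turned to the strand of a gene.

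The side with more signal beyond 1000 bp went with the decile. The left flank exceeded the right in 45 of 47 libraries in decile 8, by a mean of 0.279 signal units (SD 0.202), and in 41 of 47 in decile 9, by 0.363 (SD 0.276). In decile 10 the right flank was higher in 34 of 47, with a mean left minus right of -0.146 (SD 0.260). All libraries average the same sites, so these counts describe the sites and are not independent observations of them. The left minus right difference moved between genotypes by -0.058, -0.178 and -0.021 in deciles 8, 9 and 10, and none passed an exact permutation test of the 4 against 4 series (p = 0.2, 0.171 and 0.886). Over the 10 deciles 0 passed after Benjamini-Hochberg adjustment (0%), and 0 had an unadjusted p under 0.05.

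The first comparison asked whether the trough depends on BMAL1. Signal was averaged over the positions less than 150 bp from the middle (central signal) and over those more than 1000 bp from it on either side (flank signal). Relative central signal is the first in percent of the second, so that a shallower trough has a higher value. It was higher in Bmal1-/- than in wild-type livers in deciles 8 and 9. In decile 8 the wild-type series 11, 12, 26 and 27 stood at 72.1%, 69.2%, 71.1% and 71.1%, and the Bmal1-/- series 5, 8, 9 and 10 at 79.7%, 76.8%, 85.6% and 80.6%. Every Bmal1-/- series lay above every wild-type series. Wild type averaged 70.9% ± 1.19 and Bmal1-/- 80.6% ± 3.69 (SD, n = 4 series each), which is 9.76 percentage points apart (exact two-sided permutation p = 0.0286, Benjamini-Hochberg adjusted over the 10 deciles 0.0317). Without series 11, 12, 26 or 27 the groups stayed apart but the adjusted p was 0.0635, with differences of 9.22 to 10.2 points.

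In decile 9 the wild-type series stood at 68.8%, 65.5%, 72% and 71.6%, and the Bmal1-/- series at 74.5%, 72.2%, 81.6% and 77.02%, in the same order of numbers. The groups again did not overlap, but the highest wild-type series (26) and the lowest Bmal1-/- series (8) lay next to each other. The difference was 6.85 points, from 69.5% ± 3.02 to 76.3% ± 4.04 (SD, n = 4 series each; exact permutation p = 0.0286, adjusted 0.0317). With a centre of 250 bp to each side in place of 150 bp the difference was 5.75 points and did not pass (exact permutation p = 0.171). Nor did it pass without series 11, 12, 26, 27 or 9 (exact permutation p = 0.0571, adjusted 0.0635), where it was 5.09 to 7.69 points.

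In decile 10 the wild-type series stood at 70.8%, 70.6%, 72.98% and 73.2%, and the Bmal1-/- series at 74.9%, 71.8%, 82.9% and 81.1%. Here the groups overlapped, since Bmal1-/- series 8 lay below 2 wild-type series. Wild type averaged 71.9% ± 1.41 and Bmal1-/- 77.7% ± 5.23 (SD, n = 4 series each). The 5.81 points between them did not pass (exact permutation p = 0.0857). Without series 8 it was 7.77 points, with groups apart (exact permutation p = 0.0286, the smallest that 4 against 3 series allow, adjusted 0.0286).

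Of the 10 deciles, 9 passed this test (90%), and 2 of these were deciles 8 and 9. The share says nothing particular about them. The median difference was 6.85 points over deciles 8 to 10 and 8.48 points over all 10. The 70 assignments of 4 against 4 series allow no p below 0.0286. Just before them in the list, decile 7 had 67.8% ± 1.498 in the wild-type series and 73.8% ± 2.80 in the others (SD, n = 4 each). The plain mean of the 3 profiles gave 70.5%, 68.4%, 72.02% and 71.96% in the wild-type series and 76.3%, 73.6%, 83.4% and 79.5% in the Bmal1-/- series 5, 8, 9 and 10, so that series 9 was the highest and series 8 the lowest Bmal1-/- series in each of the 3 deciles and in their mean.

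**Figure D2:**
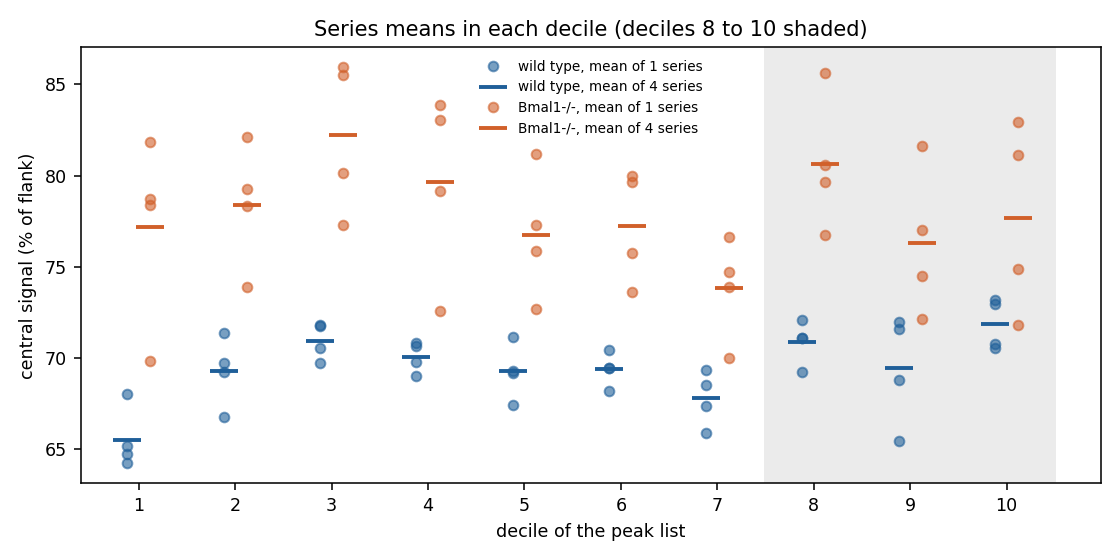
Relative central signal (vertical axis, percent of the flank) in each of the 10 deciles (horizontal axis); points are means of 1 series over its times and bars the means of 4 series, wild type in blue and Bmal1-/- in orange, with deciles 8 to 10 shaded. In deciles 8 and 9 the 4 Bmal1-/- series lie above the 4 wild-type series, and in decile 10 the lowest of them, 71.8%, lies among the wild-type series.

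The ratio rests on its centre and on its flank, and these were also set side by side. As scaled by the authors, central signal in decile 8 was 5.01, 4.70, 4.81 and 4.67 signal units in the wild-type series and 5.54, 4.90, 5.52 and 5.31 in the Bmal1-/- series. These groups overlapped, with series 8 the lowest Bmal1-/- series and series 11 the highest wild-type series, and the difference of 0.521 did not pass (exact permutation p = 0.0571, adjusted 0.143). The differences of 0.361 in decile 9 and 0.291 in decile 10 did not pass either (exact permutation p = 0.143 for each). In decile 8 the wild-type flank had 6.77 ± 0.158 signal units and the Bmal1-/- flank 6.60 ± 0.259 (SD, n = 4 series each). Decile 9 had 6.81 ± 0.182 and 6.67 ± 0.273, and decile 10 had 6.67 ± 0.0978 and 6.54 ± 0.273. Bmal1-/- series 5 had the highest flank of all 8 series in deciles 8, 9 and 10 (6.96, 7.05 and 6.94) and series 8 the lowest (6.38, 6.41 and 6.32).

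Position by position, limma was fitted to log2(signal + 5.58) over the 300 positions of all 10 deciles in 47 libraries, and calls are given as the width they cover, since neighbouring positions share fragments. At an adjusted p under 0.05, Bmal1-/- signal was higher over 230 bp of decile 8, from -150 to 80 bp, over 170 bp of decile 9, from -130 to 40 bp, and over 70 bp of decile 10, from -40 to 30 bp. With the mice of a series kept as a replicate block, at an estimated correlation of 0.357, limma called 0 bp, as it did on series means. In the fit without the block, all of it lay within 150 bp of the middle, and more of it to the left than to the right. Over the 10 deciles 6.97% of positions were called higher and 0.6% lower. The largest changes were 0.110 ± 0.0190 at -35 bp in decile 8, 0.082 ± 0.020 at -25 bp in decile 9 and 0.068 ± 0.020 at -15 bp in decile 10 (log2 scale ± SE; limma adjusted p = 4.55e-06, 0.00147 and 0.0172). The added constant makes these values smaller than the log2 change of the signal itself.

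Lower signal in Bmal1-/- was called over 60 bp, all in the left flank of decile 9 between -1080 and -940 bp. The fit treats every mouse as a sample of its own. On series means, 4 of each genotype, limma called 0 bp at an adjusted p under 0.05, and 280 bp higher and 0 bp lower at an unadjusted p under 0.05. These unadjusted widths cover deciles 8 to 10 alone, and those of the other deciles were not taken. Without series 5 the calls in deciles 8 to 10 were 400 bp higher and 2940 bp lower, and without series 8 they were 1360 bp higher and 10 bp lower, so that the calls changed with single series. They were 240 bp higher and 0 bp lower without series 12, 180 and 0 bp without series 9, and 350 and 0 bp without series 10. Median centring of the libraries gave 890 bp higher and 110 bp lower, quantile normalization 40 bp and 0 bp.

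The shape of the trough was compared apart from its depth. Its width at the midpoint between central and flank signal was 334 ± 30.7 bp in decile 8, 369 ± 75.2 bp in decile 9 and 304 ± 35.9 bp in decile 10 in wild type (SD, n = 4 series). In Bmal1-/- livers it was 323 ± 36.03, 355 ± 80.7 and 301.6 ± 54.7 bp. The differences of -11.0, -14.4 and -2.44 bp were smaller than the SD between series (exact permutation p = 0.657, 0.771 and 0.914), and over the 10 deciles 0 passed (0%), with 0 at an unadjusted p under 0.05.

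Shoulder signal, the mean from 150 to 400 bp on both sides in percent of the flank, was 93.1% ± 1.53, 89.9% ± 2.78 and 94.7% ± 2.02 in deciles 8, 9 and 10 of wild-type livers (SD, n = 4 series). Bmal1-/- livers had 96.4% ± 4.71, 92.7% ± 4.48 and 97.99% ± 4.68. The differences of 3.28, 2.81 and 3.26 points did not pass (exact permutation p = 0.343, 0.314 and 0.314). Of the 10 deciles, 0 passed (0%) and 1 had an unadjusted p under 0.05, and all 10 differences were positive. Shoulders were uneven in decile 10, at 91.95% ± 1.86 on the left and 97.5% ± 3.20 on the right in wild type, and at 95.5% ± 4.85 and 100.5% ± 4.72 on the same sides of the Bmal1-/- profile (SD, n = 4 series). In decile 8 the sides differed by less, at 92.8% ± 1.40 and 93.4% ± 2.05 in wild type.

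The second comparison followed the genotype difference through the day. It was positive at all 6 times in each of deciles 8, 9 and 10, from 8.25 points at ZT18 to 12.6 points at ZT06 in decile 8, from 2.96 at ZT02 to 11.2 at ZT14 in decile 9, and from 4.04 at ZT22 to 9.94 at ZT14 in decile 10. Over all 10 deciles 58 of 60 differences were positive, so the sign is not particular to deciles 8 to 10. None of the 18 differences in deciles 8 to 10 passed after adjustment over the 60 tests of 10 deciles at 6 times, of which 0 passed (0%). At an unadjusted exact permutation p under 0.05 there were 4 of the 18, and 26 of the 60.

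Those 4 were the ones of the 18 whose groups of mice did not overlap. Over all 10 deciles 27 of 60 did not overlap, so the count says nothing particular about deciles 8 to 10. In decile 8 at ZT06 the wild-type mice stood at 65.4%, 68.4%, 68.8% and 70.5%, and the Bmal1-/- mice at 71.6%, 80.9%, 82.96% and 88.1% (exact permutation p = 0.0286, adjusted 0.0659). At ZT10 the Bmal1-/- mice lay close together, at 76.7%, 76.7%, 76.9% and 77.8%, above wild-type mice at 64.5%, 64.7%, 68.8% and 69.3%. At ZT18 the wild-type mice stood at 66.6%, 70.95%, 72.2% and 73.02%, and the Bmal1-/- mice at 75.3%, 79.8%, 80.3% and 80.5%. In decile 9 at ZT14 wild-type mice had 62.6%, 67.4%, 69.3% and 71.9%, and Bmal1-/- mice 72.8%, 77.5%, 78.9% and 86.6%. Each of these has the same exact permutation p of 0.0286 and adjusted p of 0.0659.

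In decile 10 the mice of the genotypes overlapped at all 6 times. The spread was widest at ZT06, where the Bmal1-/- mice stood at 67.1%, 69.7%, 84.6% and 91%, on both sides of wild-type mice at 68.6%, 69.9%, 70.4% and 72.3%. The difference there was 7.82 points (exact permutation p = 0.4). Over all times, single wild-type mice ranged from 64.1% to 81.4% in decile 8 (median 70.9%), from 62.2% to 79.9% in decile 9 (median 69.8%) and from 65.2% to 81.3% in decile 10 (median 71.3%). Bmal1-/- mice ranged from 71.6% to 92.1% (median 79.8%), from 64.6% to 86.6% (median 76.5%) and from 67.1% to 91% (median 76.7%).

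**Figure D3:**
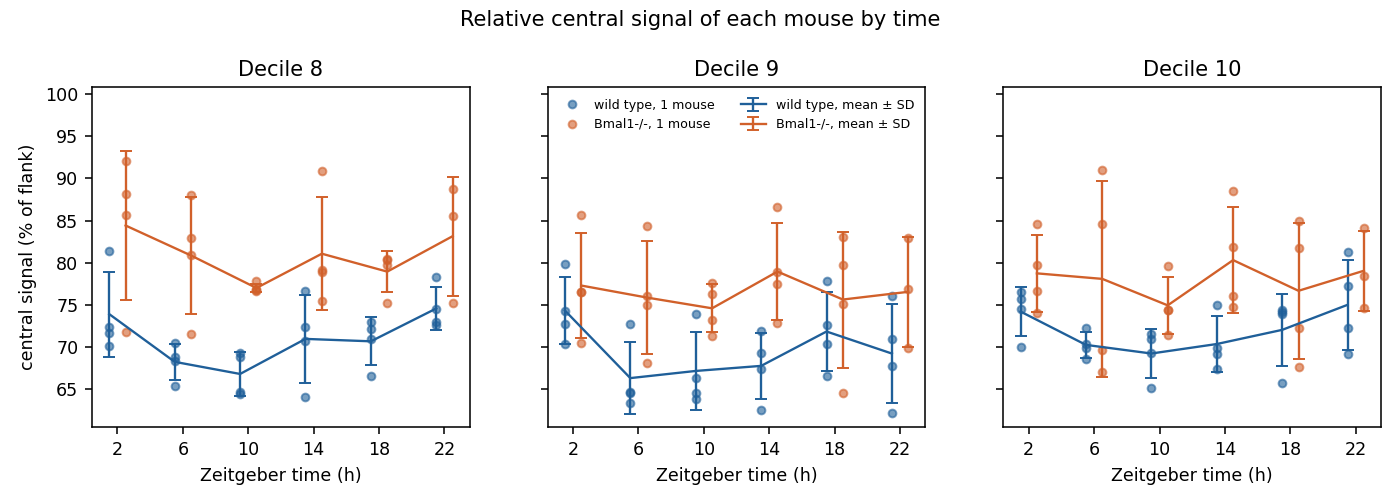
Relative central signal (vertical axis, percent of the flank) of each mouse against zeitgeber time (horizontal axis, h) in deciles 8, 9 and 10; points are mice and lines with bars the mean ± SD of 4 mice (3 Bmal1-/- mice at ZT22). The Bmal1-/- means (orange) lie above the wild-type means (blue) at all 6 times, and the mice of decile 10 overlap at each time.

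The third comparison asked whether the trough changes over the day. In wild type the trough was deepest at ZT06 or ZT10 in deciles 8 to 10. Light against dark did not pass in any of the 3, and a 24 h harmonic passed in deciles 8 and 10. In decile 8 relative central signal was 73.9% ± 5.05 at ZT02, 68.3% ± 2.13 at ZT06, 66.8% ± 2.57 at ZT10, 70.99% ± 5.22 at ZT14, 70.7% ± 2.83 at ZT18 and 74.6% ± 2.59 at ZT22 (SD, n = 4 mice). Decile 9 went through 74.4% ± 4.03, 66.3% ± 4.27, 67.2% ± 4.60, 67.8% ± 3.93, 71.9% ± 4.69 and 69.3% ± 5.83 at the same times. Decile 10 went through 74.2% ± 2.90, 70.3% ± 1.52, 69.3% ± 2.85, 70.4% ± 3.27, 72.1% ± 4.23 and 75.03% ± 5.37. The lowest mean was thus at ZT10 in deciles 8 and 10 and at ZT06 in decile 9, and the mean at ZT02, a time of light, was among the 2 highest in each.

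Light and dark means were then compared. In decile 8 they were 69.7% ± 4.49 and 72.1% ± 3.86 (SD, n = 12 mice each), in decile 9 69.3% ± 5.41 and 69.6% ± 4.75, and in decile 10 71.3% ± 3.19 and 72.5% ± 4.43. Light minus dark was -2.42 ± 1.71 points, -0.34 ± 2.08 and -1.23 ± 1.58 (± SE), and none passed a two-sided permutation test of mice (p = 0.172, 0.872 and 0.44). Without series 11 it was -3.84 points in decile 8 and passed, and it changed sign in decile 9 without series 26 or 27. Of the 10 deciles, 7 passed (70%), and deciles 8, 9 and 10 were the 3 that did not. Decile 6, at -3.51 points, and decile 7, at -3.81, were among those that passed. No test was made of deciles 8 to 10 against either of these alone. Without ZT02 and ZT14, light minus dark was -5.10 points in decile 8, -3.79 in decile 9 and -3.77 in decile 10. These times were left out after the values were seen, so no test is drawn from this choice. By position, limma called 0 bp of deciles 8 to 10 in either direction between light and dark, while 0% of all positions were called higher and 0.9% lower in the light. All of these calls lay in deciles 1 and 4, over 230 and 40 bp, so 0 bp is not particular to deciles 8 to 10. At an unadjusted p under 0.05, limma gave 40 bp of decile 8, 80 bp of decile 9 and 30 bp of decile 10 lower in the light. In deciles 1 to 7 this width ran from 80 bp, in decile 6, to 520 bp, in decile 1.

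A 24 h harmonic fits the timing without fixed phases. Its amplitude in wild type was 3.48 ± 1.05 points in decile 8, with the deepest trough at ZT 10.2 ± 1.15 h, and it passed a test in which times were permuted over 24 mice (permutation p = 0.0105, adjusted 0.0131). In decile 10 it was 2.92 ± 0.965 points with the deepest trough at ZT 10.8 ± 1.26 h (± SE, n = 24 mice; permutation p = 0.0226, adjusted 0.0251). In decile 9 it was 2.72 ± 1.38 points, deepest at ZT 10.4 ± 1.95 h, and did not pass (permutation p = 0.17). Of the 10 deciles, 9 passed (90%). The call in decile 8 was lost without series 12 or 27, at amplitudes of at least 2.93 points, and that in decile 10 was lost without series 11 or 27, at amplitudes of at least 2.07.

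In Bmal1-/- livers no daily course passed a test. Light minus dark was -0.11 ± 2.50, -1.17 ± 2.41 and -1.39 ± 2.74 points in deciles 8, 9 and 10 (± SE, 12 and 11 mice; permutation p = 0.966, 0.631 and 0.617). The harmonic had amplitudes of 2.74 ± 1.75, 0.545 ± 1.74 and 0.852 ± 2.05 points (permutation p = 0.309, 0.951 and 0.916). For both measures 0 of the 10 deciles passed (0%), and 0 had an unadjusted p under 0.05. By position, limma called 0 bp between light and dark in Bmal1-/- livers (0% of positions higher and 0% lower), with 30 bp of decile 10 higher in the light at an unadjusted p under 0.05. That unadjusted width was 40 bp in decile 2 and 50 bp in each of deciles 3 and 7.

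The difference between genotypes in the daily course was tested itself and was not shown in these deciles. By series, light minus dark was -2.42 ± 3.84, -0.34 ± 2.81 and -1.23 ± 1.98 points in wild type (SD, n = 4 series). The Bmal1-/- series had 0.201 ± 3.39, -0.665 ± 3.02 and -0.822 ± 2.41. The genotypes differed by 2.62, -0.33 and 0.41 points (exact permutation p = 0.343, 0.914 and 0.743), with 0 of 10 deciles past the adjusted test (0%) and 3 at an unadjusted p under 0.05, none of them deciles 8 to 10. The harmonics differed by 2.50, 3.35 and 2.76 points (exact permutation p = 0.6, 0.343 and 0.229), again with 0 of 10 deciles past the adjusted test (0%) and 2 at an unadjusted p under 0.05. By position, limma called 0 bp (0% of positions higher and 0% lower), with 70, 80 and 60 bp of deciles 8, 9 and 10 higher at an unadjusted p under 0.05.

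The wild-type daily course was also set against that of the first decile of the list, whose sites were the widest. In wild type the first decile had light and dark means of 60.3% and 70.7%. Subtracting it within each library, decile 8 gave a light minus dark of 8.001 points, decile 9 10.1 and decile 10 9.19 (permutation p = 5e-05, 6e-05 and 0.00019, Benjamini-Hochberg adjusted over 6 such differences 0.00018, 0.00018 and 0.00038). The gap between the first decile and the last ones was thus wider in the light than in the dark. The same difference, computed for each of deciles 2 to 10 after the data were seen, passed in 8 of these 9 (88.9%), so that the deciles before them differed from the first decile too. It was 6.91 points in decile 6 and 6.60 in decile 7 (adjusted permutation p = 0.000428 and 0.00128). A 24 h harmonic of the gap, a test added after the data were seen, had amplitudes of 6.09 ± 1.14, 6.57 ± 1.57 and 6.76 ± 1.31 points, and the gap was lowest at ZT 17.6, 17.9 and 17.8 (± SE, n = 24 mice; permutation p = 6e-05, 0.00188 and 0.00035). Of deciles 2 to 10, 7 of 9 passed this test (77.8%), with an amplitude of 5.18 points in decile 6 and 4.60 in decile 7, and neither count says anything particular about deciles 8 to 10. The trough of the first decile was deepest at ZT 7.15 by its harmonic, earlier than ZT 10.2 to 10.8 here, and the difference between these times was not tested.

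**Figure D4:**
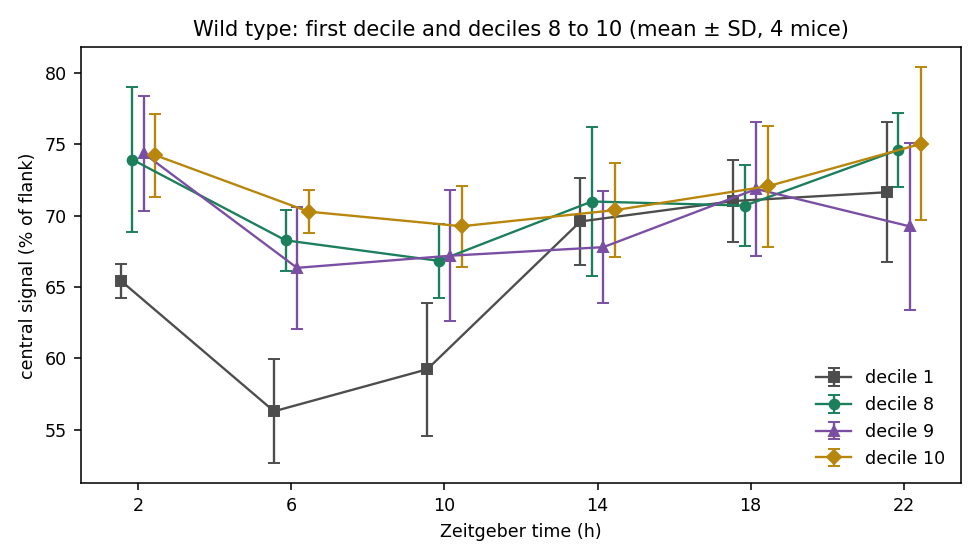
Relative central signal (vertical axis, percent of the flank) in wild-type livers against zeitgeber time (horizontal axis, h) for the first decile and deciles 8, 9 and 10; points with bars are the mean ± SD of 4 mice. The lines lie close together at ZT14 and ZT18, and at ZT02, ZT06 and ZT10 the first decile lies below deciles 8 to 10.

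Against deciles 5 to 7, their nearest neighbours in the list, light minus dark in wild type was higher by 4.36 points in decile 9 and 3.46 in decile 10 (permutation p = 0.0207 and 0.0158, adjusted 0.0248 and 0.0237), and by 2.28 points in decile 8, which did not pass (p = 0.158). Those in deciles 9 and 10 did not pass with a centre of 250 bp to each side (2.61 and 2.15 points) or without series 11 or 12. Leaving out 1 wild-type series at a time gave 3.16 to 5.44 points in decile 9 and 2.57 to 4.19 in decile 10. Light minus dark itself was -6.74 points in decile 5, -3.51 in decile 6 and -3.81 in decile 7. The lowest of these was thus in decile 5, the farthest in the list. Deciles 9 and 10 were not tested against decile 6 or 7 alone.

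The genotype difference was not shown to set these deciles apart. It differed from that of the first decile by -1.90, -4.82 and -5.86 points in deciles 8, 9 and 10 (exact permutation p = 0.229, 0.114 and 0.0286), and from that of deciles 5 to 7 by 2.65, -0.26 and -1.31 points (exact permutation p = 0.0286, 0.886 and 0.371). None of these 6 passed after Benjamini-Hochberg adjustment, where the smallest adjusted p was 0.0857. A p of 0.0286 is the smallest that 4 against 4 series allow. The differences at that p could thus pass only if more of the 6 reached it, whatever their size. Their failure to pass does not show that the genotype difference is the same across these deciles. Within library, decile 10 exceeded the first decile by 6.33 ± 2.55 points in the wild-type series and by 0.473 ± 2.97 in the Bmal1-/- series (SD, n = 4 each). Relative to each other, the profiles of decile 10 and the first decile thus stood further apart in wild-type livers in these series, at an unadjusted exact permutation p of 0.0286.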

How the data were processed

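MNase-seq signal around CLK:BMAL1 peaks was analysed in 47 mouse liver libraries. Per the submitters' processing notes, CASAVA 1.7, Bowtie and the mm9 build were used. No source used here states the Bowtie version, how duplicates were treated or what the signal was scaled to. The deposited signal is a scaled coverage that the authors averaged over each set of peaks. Values move in steps worth 1 fragment, and 100% were whole to within 0.1 step, which gave the number of peaks per set and the depth. The deciles and the measures were chosen with earlier results of these data known. Named sites are the first and last of the rows and the widest of each class, chosen by a fixed rule outside chromosome 18.

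Genotypes were compared by exact two-sided permutation of 8 series means (series 8 lacks ZT22 and is the mean of 5 times), light and dark and the 24 h harmonic by 100000 permutations of mice. Benjamini-Hochberg adjustment ran over all 10 deciles, or 60 tests by time, at 0.05. Positions were tested with limma 3.58.1 under R 4.3.3 (trended eBayes, 12 groups of genotype and time, 3000 positions, the 10th percentile as pseudocount), and other steps with Python 3.11.15, NumPy 2.4.6 and SciPy 1.17.1. Tests were checked on simulated data with independent mice and positions, which does not cover correlation within a series or between neighbouring positions. Each library is 1 mouse per the labels. In the permutations of mice and the main limma fit, mice with the same number were treated as unpaired. The rule for pairing was that every such pair had deviations correlated over 0.1, which 27 of 60 wild-type and 35 of 55 Bmal1-/- pairs did. The median correlation was 0.0886 and 0.136 in these pairs, against -0.0338 and -0.0715 in pairs of other numbers. A shared number thus went with a higher correlation, and the rule does not show that these mice are independent. Alternatives were other widths of centre and flank, other scalings and filters, a replicate block, and leaving out each series. No sequence was read, since the genome at hand is of another build than mm9.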

Additional observations from a re-analysis of the deposited data

Results flagged for a closer look

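In 39 groups of 4 values of relative central signal in deciles 8 to 10, 3 had 1 mouse far from the other 3; chance alone marks about 1 in 20 such groups. In decile 8, the Bmal1-/- mouse of series 8 at ZT18 stood at 75.3%, below the next at 79.8%. In decile 9, the wild-type mouse of series 27 at ZT06 stood at 72.7%, above the next at 64.6%. In decile 10, the wild-type mouse of series 11 at ZT18 stood at 65.7%, below the next at 73.9%. No cause was tested, and no mouse was left out of the results on its account.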

How the results depend on the processing

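Under the alternatives other than leaving out a series, the main comparisons changed direction or side of the threshold, or moved by over 1.5 times, only in the values that follow; the cause was not tested unless stated. With a centre of 50 bp to each side, the genotype difference in light minus dark of decile 10 was -0.39 points, on the other side of 0. At 250 bp, the genotype difference of decile 9 (5.75), the wild-type amplitude of decile 10 (2.54) and the light minus dark of deciles 9 and 10 against deciles 5 to 7 (2.61 and 2.15) no longer passed, and light minus dark of decile 8 in Bmal1-/- changed sign (0.376). With a flank beyond 750 bp, the amplitude of decile 10 (2.40) no longer passed, and light minus dark of decile 8 in Bmal1-/- (0.0788) and the genotype difference of decile 9 against deciles 5 to 7 (0.0551) changed sign. As scaled by the authors, deciles 8 and 9 differed between genotypes by 0.521 and 0.361 signal units and did not pass. Without ZT02 and ZT14, light minus dark of decile 8 in wild type (-5.10) crossed the threshold. This is not a test of it, since the times were chosen after seeing the data.

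The limma width called between genotypes in deciles 8 to 10, 530 bp, became 1000 bp with libraries centred on their median, 40 bp with quantile normalization, and 0 bp without the 25% of positions of lowest signal, which leaves out the trough itself. It was 0 bp with the means of 8 series and 0 bp with a replicate block, in which the mice of a series had a correlation of 0.357. For the light and dark contrasts the series entered the block as fixed terms in place of a correlation. There, 10 bp were called between light and dark in wild type and 10 bp for the difference between genotypes in light minus dark. Among the tests on which it was run, the block changed no other call in these deciles. It was not run on the permutation tests of light minus dark, or of the 24 h harmonic, against other deciles. Whether those calls hold with the mice of a series kept together was not tested.

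Leaving out 1 series at a time gave these ranges. Genotype differences were 8.11 to 11.1 points in decile 8, 5.09 to 8.23 in decile 9 and 4.05 to 7.77 in decile 10; the calls in deciles 8 and 9 were lost without any 1 wild-type series, that in decile 9 also without series 9, and decile 10 passed without series 8. Light minus dark in wild type was -3.84 (passing, without series 11) to -1.23 in decile 8 and -1.46 to 0.581 in decile 9; in Bmal1-/- it was -1.85 to 0.995 and -1.73 to 0.0845. Its genotype difference was -1.25 to 1.10 in decile 9 and -0.38 to 1.58 in decile 10. Amplitudes in wild type were 2.93 to 4.44 in decile 8 and 2.07 to 3.97 in decile 10. Against deciles 5 to 7, the genotype difference of decile 9 was -1.34 to 0.678, and light minus dark 3.16 to 5.44 in decile 9 and 2.57 to 4.19 in decile 10. Trough width differed by -21.7 to 4.22 bp, -48.9 to 9.12 bp and -19.6 to 15.3 bp in deciles 8, 9 and 10, and the flank sides of decile 10 by -0.082 to 0.037. The limma width ranged from 180 to 3340 bp, the latter without series 5. At the average count of the central positions of a decile, the counting error was at most 2.14%. Single sites cannot be told apart in averaged profiles.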
